A study of Mus musculus with 12 samples.

Results

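The 50 genes described here encode the machinery that copies DNA in S phase, the stretch of the cell cycle in which the genome is duplicated. They were taken from a fixed list of symbols, and all 50 had a probe set that the array's annotation pairs with exactly 1 symbol, of 19938 such genes in all. For the 3 members with several probe sets (Pcna, Rpa3 and Tk1), the brightest over all 12 arrays was used. The genes were measured in whole liver of inbred C57Bl/6J mice, injected by vein at 10 weeks of age with a recombinant adenovirus and killed in the fed state 7 days later. In 6 mice the virus carried a scrambled short hairpin RNA (sh scramble), and in 6 it carried a hairpin against Grb14 (sh Grb14), an adapter protein that inhibits the activated insulin receptor. Both groups therefore carry an adenovirus and a hairpin. Livers without virus were not analysed here, and the labels give neither the sex of the mice nor the cells the virus entered. Each liver gave 1 array, and values are log2 expression levels.

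Replication begins when the origin recognition complex, CDC6 and CDT1 load the MCM2-7 helicase onto DNA. Cyclin E with its kinase, and CDC7 with DBF4, then switch the helicase on with the help of CDC45 and the GINS complex. Primase and polymerase alpha start each new strand, and other polymerases, held to DNA by the ring-shaped clamp PCNA, extend it. Most hepatocytes of an adult liver do not divide and hold little of this machinery, and they make it again when liver is lost or injured. Many of its genes are transcribed under the E2F family of transcription factors.

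The targeted gene was checked first. Grb14 ranged from 10.08 to 10.25 in sh scramble livers and from 8.02 to 8.44 in sh Grb14 livers, so the groups did not overlap, and its change was −1.91 (SE 0.059; limma adjusted p = 7.99e-14), in the direction of the labels. The array medians lay between 7.06 and 7.17, and pairs of arrays correlated with r from 0.990 to 0.997 within a group and from 0.959 to 0.972 between groups, across probe sets, which are not independent replicates. Albumin and the other 9 genes of a hepatocyte list were near the top of the scale in both groups, with mean levels of 13.22 to 13.29 and 12.74 to 12.97.

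The replication genes were higher in sh Grb14 livers. Of the 50 genes, 46 rose and 1, Mcm10, fell, by limma's moderated test with a Benjamini-Hochberg adjusted p under 0.05 over all genes. Gins4, Pold2 and Tk1 did not pass. The share that rose was 92%, against 25.8% of all 19938 genes, 39.5% of all genes fell, and 65.3% passed in either direction. At least 2-fold rises were seen in 27 members, or 54%, against 6.37% of all genes. In 43 members (86%) every sh Grb14 liver was above every sh scramble liver, as in 20.3% of all genes. Mcm10 was the member with the opposite separation, which 20.8% of all genes showed. The median change of the members was 1.06 on the log2 scale, and that of all genes was −0.10. These counts describe a list chosen with earlier results of these livers known, and in whole tissue more cells in S phase and more RNA per cell cannot be told apart.

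**Figure D1:**
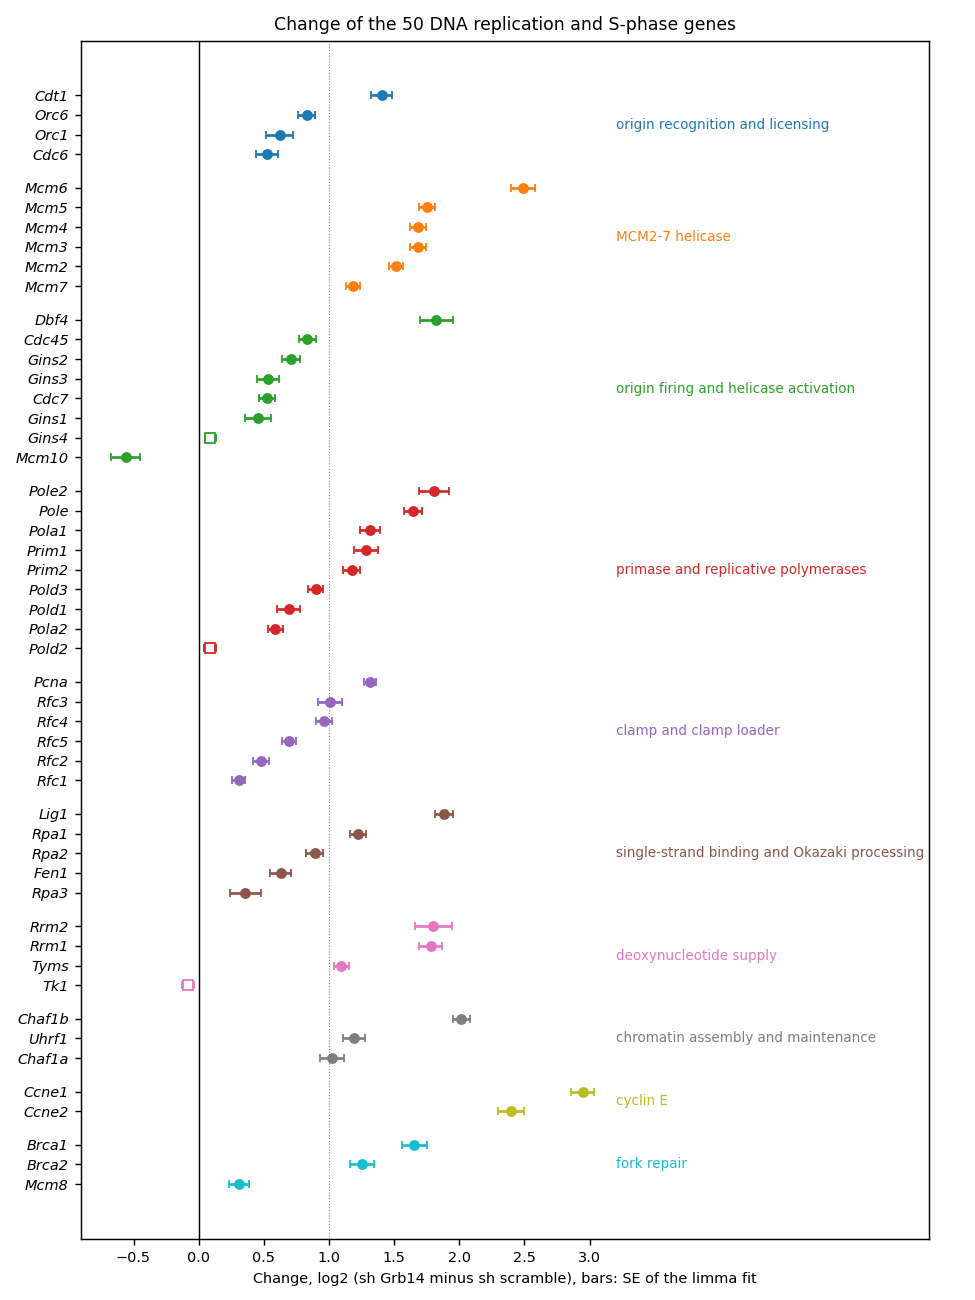
Change of each of the 50 genes, as the log2 difference sh Grb14 minus sh scramble (x axis), with the SE of the limma fit as bars, grouped by role. Filled circles passed the test and open squares did not. The cyclin E genes Ccne1 (2.95) and Ccne2 (2.40) and the helicase gene Mcm6 (2.49) lie farthest to the right, and Mcm10 (−0.56) lies alone on the left among genes past the test. The dotted line marks a 2-fold rise.

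Levels of the members were also compared in single livers. Mice are numbered from 1 to 6 within each group only to name them, and equal numbers in the groups are different animals. The mean level over the 50 genes ran from 7.74 to 7.93 in the sh scramble mice and from 8.77 to 9.003 in the sh Grb14 mice. Among sh scramble livers, mouse 3 had the highest value of its group for 25 of the 50 genes and the lowest for 1. Among sh Grb14 livers, mouse 3 was the highest for 19 genes and mouse 4 the lowest for 27. Leaving out any single mouse gave 46 or 47 genes higher and 1 lower.

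**Figure D2:**
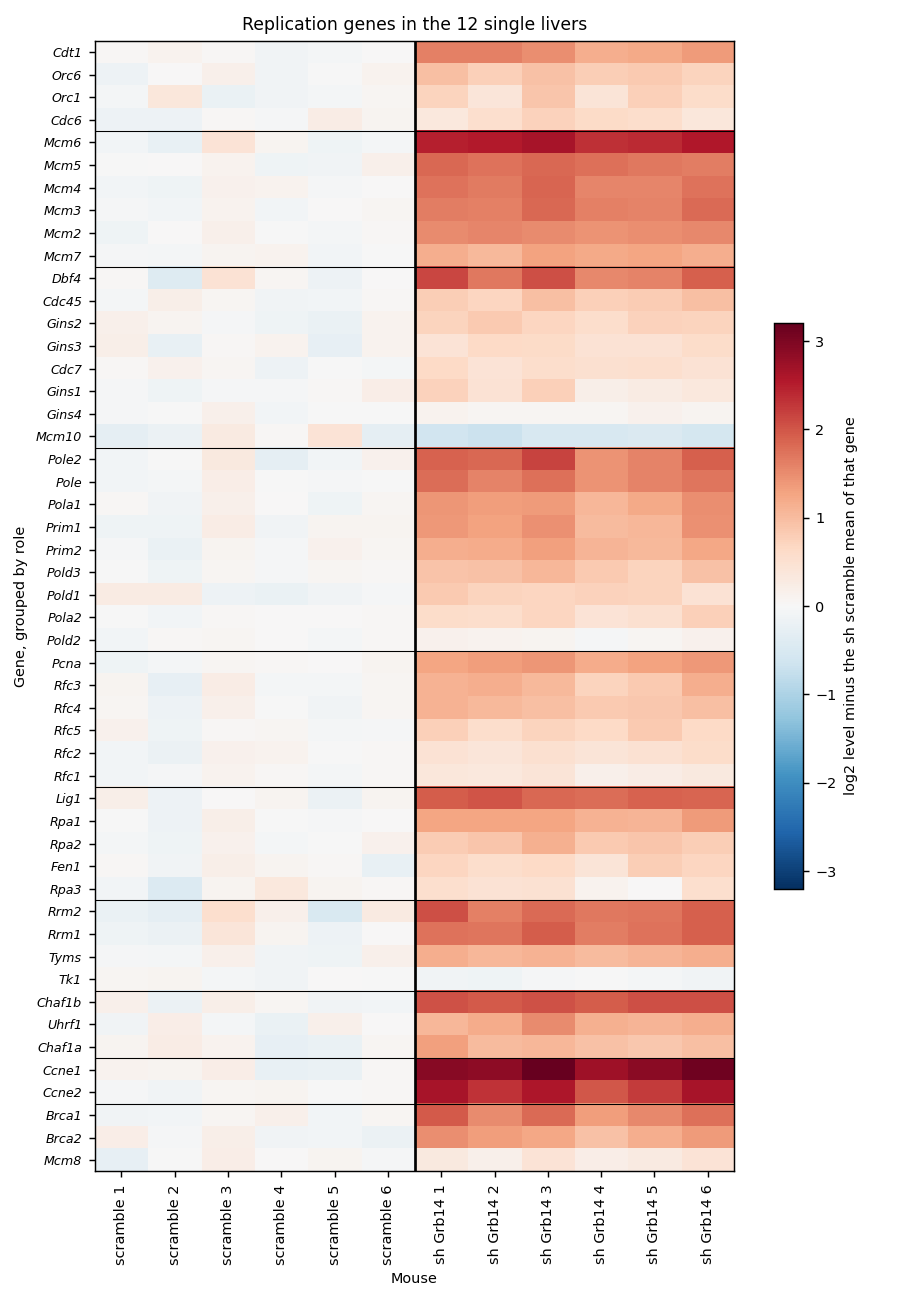
Level of each gene (rows, by role) in each of the 12 livers (columns), as the log2 difference from that gene's sh scramble mean; red is higher and blue lower. The 6 sh Grb14 columns are red in nearly every row, with Mcm10 blue and Gins4, Pold2 and Tk1 close to white.

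The promoters of the members were searched for motifs. Many genes of replication are transcribed under E2F, as said above, and the list was chosen with earlier results of these livers known. The share of matches therefore describes the list and is not a separate result about the changes. RefSeq windows of 300 bases (build GRCm38.p6), from 250 bases before each start site to 50 after it, were at hand for 42 of the 50 genes, the others being Mcm4, Gins1, Gins2, Gins4, Prim2, Pole, Rfc2 and Ccne2. The E2F motif was searched as TTTCCCGC, TTTCGCGC, TTTGCCGC and TTTGGCGC and their reverse complements. A match was present in 17 of the 42 genes (40.5%), against 2.60% of 27025 genes in the promoter table, 3.48% of the genes tested here and 5.62% of those that rose. Member windows were richer in C and G, with a median of 60.7% and 24.5 CpG dinucleotides, against 57.7% and 15 in the genes tested. Genes that rose had medians of 60.7% and 20. The CCAAT box (CCAAT on either strand) was found in 59.5% of the members and 41.1% of all genes. The CHR element, searched as TTTGAA and TTCGAA on either strand, was found in 21.4% and 21.7%, and in 19% of the genes tested. None of the 3 motifs contains another. Matches are descriptions of letters in these windows, and binding was not measured.

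The 4 members with the largest rise among those with an E2F match are given here, since they are where the motif and a large rise are found in the same gene; some members without a match, such as Ccne1 and Chaf1b, rose more than most of them. Capitals mark the matches, and all run 5′ to 3′ on the gene's strand. They are Mcm6 at chr1:128359656-128359955 (minus strand), Lig1 at chr7:13278576-13278875 (plus strand; 1 of several windows of this gene), Pole2 at chr12:69228141-69228440 (minus strand) and Mcm5 at chr8:75109259-75109558 (plus strand).
Mcm6: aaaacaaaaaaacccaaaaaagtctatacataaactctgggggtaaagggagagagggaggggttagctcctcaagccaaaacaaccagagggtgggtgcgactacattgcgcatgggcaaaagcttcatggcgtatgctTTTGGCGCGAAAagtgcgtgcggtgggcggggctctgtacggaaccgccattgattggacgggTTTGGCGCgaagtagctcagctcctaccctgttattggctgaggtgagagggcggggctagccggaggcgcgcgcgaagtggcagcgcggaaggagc
Lig1: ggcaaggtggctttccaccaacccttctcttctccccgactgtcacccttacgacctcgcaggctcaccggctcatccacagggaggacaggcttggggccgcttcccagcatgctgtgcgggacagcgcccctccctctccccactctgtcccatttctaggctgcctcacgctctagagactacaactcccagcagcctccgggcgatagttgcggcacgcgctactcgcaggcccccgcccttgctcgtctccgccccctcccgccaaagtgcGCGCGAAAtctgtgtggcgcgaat
Pole2: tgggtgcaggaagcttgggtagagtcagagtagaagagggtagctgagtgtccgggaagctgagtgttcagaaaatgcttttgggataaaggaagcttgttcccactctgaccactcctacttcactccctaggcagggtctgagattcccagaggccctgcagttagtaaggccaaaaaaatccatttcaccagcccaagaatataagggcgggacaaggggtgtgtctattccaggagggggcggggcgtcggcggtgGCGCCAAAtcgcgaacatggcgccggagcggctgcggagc
Mcm5: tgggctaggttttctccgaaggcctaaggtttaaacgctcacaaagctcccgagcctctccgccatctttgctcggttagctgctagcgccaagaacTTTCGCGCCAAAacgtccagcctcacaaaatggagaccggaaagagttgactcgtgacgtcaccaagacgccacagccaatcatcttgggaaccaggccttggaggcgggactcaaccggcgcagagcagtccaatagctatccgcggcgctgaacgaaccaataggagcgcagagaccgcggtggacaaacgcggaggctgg
In Mcm6 the matches begin 110, 106 and 47 bases before the start site, and the 110 and 106 matches overlap on opposite strands. In Mcm5 they begin 153 and 149 bases before it and overlap likewise. The single matches of Lig1 and Pole2 begin 26 and 10 bases after it.

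The 17 members with an E2F match all rose, with a median change of 1.19 (0.31 to 2.49). Of the 25 without a match in the window 22 rose, with a median of 0.96 (−0.56 to 2.95). The ranges overlap. Ccne1, with the largest change of all members, had no match with these letters in its window, and neither did Chaf1b. No test was made of this division.

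**Figure D3:**
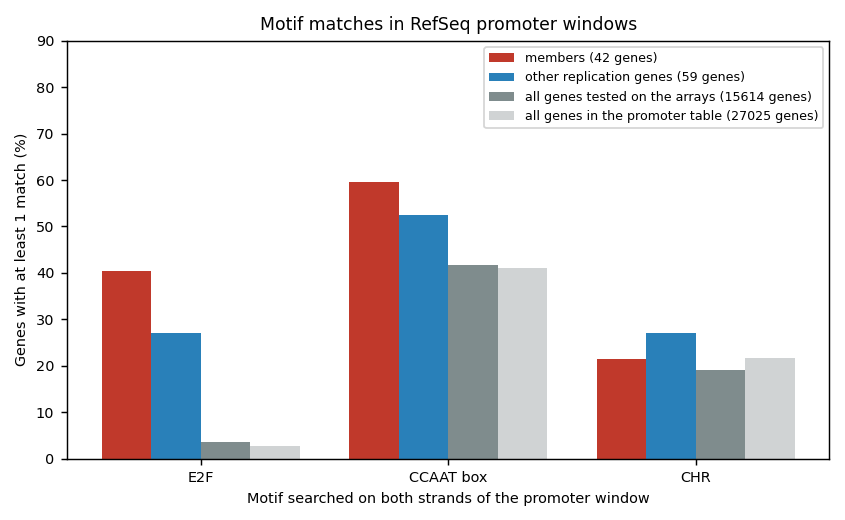
Share of genes (y axis, percent) with at least 1 match to each of 3 motifs (x axis) in a 300-base RefSeq promoter window, for members (42 genes), other replication genes (59), genes tested on the arrays (15614) and all genes of the promoter table (27025). E2F bars differ most between members (40.5%) and all genes (2.60%). CHR bars run from 19% (genes tested) to 27.1% (other replication genes).

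Genes for origin recognition and licensing rose, all 4 of 4. Counts in this and the following role groups stand beside 25.8% of all genes that rose and 39.5% that fell. In 20.3% of all genes every sh Grb14 liver was above every sh scramble liver. Cdt1, which escorts the helicase to origins, rose most. It ranged from 7.17 to 7.40 (median 7.31) in sh scramble livers and from 8.44 to 8.91 (median 8.71) in sh Grb14 livers, with no overlap and a change of 1.40 (SE 0.081; limma adjusted p = 1.45e-10), 2.65-fold. For Orc6, the smallest subunit of the origin recognition complex, the ranges were 7.76 to 8.09 (median 7.92) and 8.63 to 8.88 (median 8.73). The groups were again apart, with a change of 0.83 (SE 0.065). Orc1, a subunit that binds ATP, rose by 0.62 (SE 0.10), and Cdc6, which joins it to load the helicase, rose by 0.53 (SE 0.084). The sh scramble mean of Orc1, 5.66, lay below the lower quartiles of the arrays (5.69 to 5.83), where changes can be understated and no detection call was made.

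All 6 genes of the MCM2-7 hexamer, the ring that unwinds DNA at the fork, rose more than 2-fold. The changes lay between 1.19 for Mcm7 and 2.49 for Mcm6. In sh scramble livers Mcm6 ran from 7.65 to 8.34 (median 7.81), with mouse 3 the highest, and in sh Grb14 livers from 10.24 to 10.54 (median 10.40). This 5.62-fold rise (SE 0.093 on the log2 scale; limma adjusted p = 7.63e-13) left a gap of more than 1 log2 unit between the groups. Mcm5 went from a range of 7.60 to 7.90 (median 7.74) to one of 9.39 to 9.60 (median 9.49), a change of 1.75 (SE 0.060). The rises of Mcm4 (1.68, SE 0.063), Mcm3 (1.68, SE 0.062) and Mcm2 (1.51, SE 0.051) were of similar size. Mcm7 rose by 1.19 (SE 0.052), the least in the ring. No test of the differences between subunits was made.

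The genes that fire origins and activate the helicase were the most mixed group, with 6 of 8 higher, 1 lower and 1 not past the test. Dbf4, the regulatory subunit that the kinase CDC7 needs, rose 3.54-fold. Its range was 6.85 to 7.71 (median 7.28) in sh scramble livers and 8.80 to 9.39 (median 9.06) in sh Grb14 livers, a change of 1.82 (SE 0.13; limma adjusted p = 1.87e-09). Cdc7 itself rose by 0.53 (SE 0.061). Cdc45, which joins the active helicase, rose by 0.83 (SE 0.066).

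The 4 GINS genes encode a single complex within that helicase and had unlike changes. Gins2 rose by 0.71 (SE 0.068), Gins3 by 0.53 (SE 0.082) and Gins1 by 0.46 (SE 0.098), the last with overlapping groups. Gins4 had values of 9.71 to 9.96 (median 9.78) and 9.85 to 9.93 (median 9.88), and its change of 0.087 (SE 0.043) did not pass (limma adjusted p = 0.0816; 0.0128 to 0.227 over the alternatives). Its highest sh scramble value was that of mouse 3, and without this mouse the change was 0.12 (adjusted p = 0.0128). With each array centred on the median of the genes tested, it was −0.060 and did not pass.

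Mcm10, which helps the activated helicase start and recruits polymerase alpha, was the single member that fell. The sh scramble livers were widely spread, from 8.50 to 9.23 (median 8.72), and the sh Grb14 livers lay closely together from 8.10 to 8.33 (median 8.25). The groups did not overlap, and the change was −0.56 (SE 0.11; limma adjusted p = 0.000336), which left 67.8% of the sh scramble level. It stayed lower under every alternative run, with changes from −0.71 to −0.47. Only 1 probe set stands for Mcm10, so no other measurement of it was at hand.

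**Figure D4:**
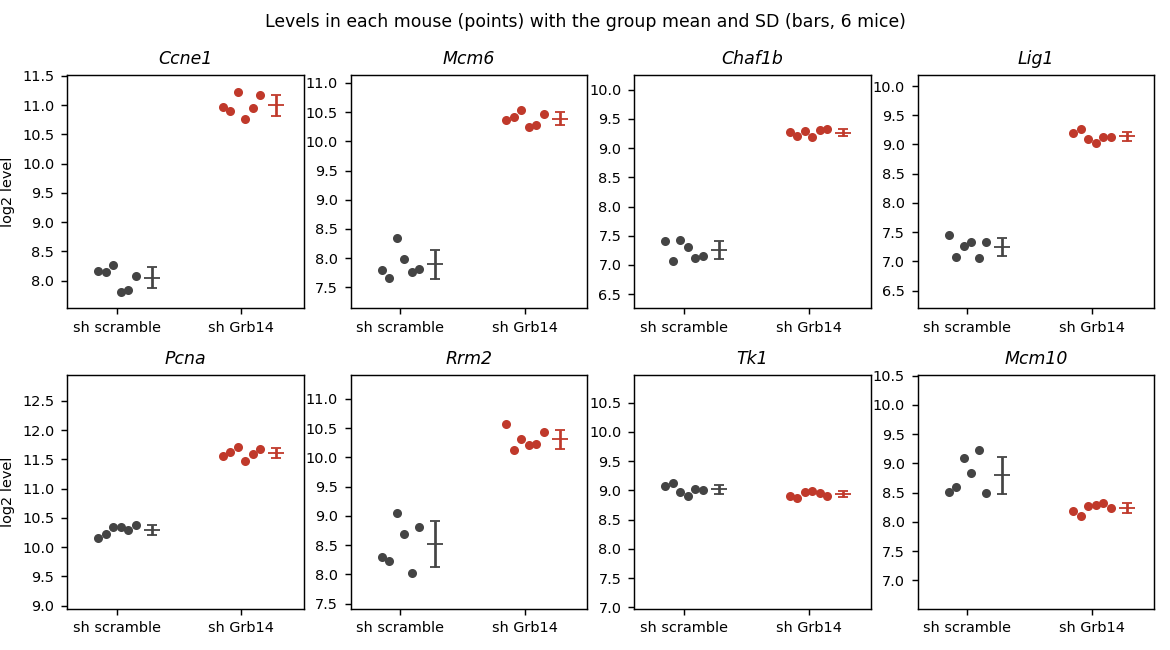
Log2 level in each mouse (points) for 8 of the genes, with the group mean and SD (bars, 6 mice per group); every panel spans 4 log2 units. In Ccne1, Mcm6, Chaf1b, Lig1, Pcna and Rrm2 the sh Grb14 points (red) lie above all sh scramble points (dark grey), in Tk1 the groups overlap, and in Mcm10 the sh Grb14 points lie below.

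Primase and polymerase genes rose in 8 of 9 cases. Pole2, the second subunit of the leading-strand polymerase epsilon, rose 3.50-fold. It ranged from 5.91 to 6.53 (median 6.16) in sh scramble livers and from 7.64 to 8.36 (median 8.07) in sh Grb14 livers, a change of 1.81 (SE 0.12; limma adjusted p = 6.07e-10). Pole, the catalytic subunit of the same enzyme, went from 7.17 to 7.48 (median 7.24) up to 8.70 to 9.06 (median 8.91), a change of 1.64 (SE 0.070). Both genes had groups well apart. The polymerase alpha and primase genes, which lay the first stretch of each new strand, rose by 1.31 (Pola1, SE 0.074), 0.59 (Pola2, SE 0.055), 1.28 (Prim1, SE 0.094) and 1.17 (Prim2, SE 0.065).

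Polymerase delta copies the lagging strand, and 2 of its 3 genes among the members rose. Pold4, a subunit gene outside the members, rose by 0.55 (limma adjusted p = 6.59e-08). Pold3 rose by 0.90 (SE 0.056) and the catalytic subunit gene Pold1 by 0.69 (SE 0.091). Pold2, the subunit that ties the enzyme together, had values of 9.24 to 9.38 (median 9.35) and 9.29 to 9.48 (median 9.44). These overlap, and its change of 0.088 (SE 0.045) did not pass (limma adjusted p = 0.0943; 0.0271 to 0.624 over the alternatives). Without sh Grb14 mouse 4 it was 0.11 (adjusted p = 0.0305), with array quality weights 0.11 (adjusted p = 0.0271), and with arrays centred on the median of the genes tested −0.059, not past the test.

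The sliding clamp and the complex that loads it rose in all 6 genes. Pcna, the clamp, ranged from 10.16 to 10.37 (median 10.32) in sh scramble livers and from 11.47 to 11.71 (median 11.61) in sh Grb14 livers. The groups were more than 1 log2 unit apart, and the change was 1.31 (SE 0.048; limma adjusted p = 5.88e-13), 2.49-fold. Its 2 probe sets differed by at most 0.019 in any liver, and whether the second measures a near-identical copy of the gene cannot be told from the files. Among the loader subunits Rfc3 rose most, from 7.70 to 8.19 (median 7.96) up to 8.67 to 9.13 (median 9.03), a change of 1.01 (SE 0.090). Rfc4 rose by 0.96 (SE 0.063), Rfc5 by 0.69 (SE 0.053), Rfc2 by 0.48 (SE 0.061) and the large subunit gene Rfc1 by 0.31 (SE 0.052). No overlap between groups was seen in any of the 6.

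Genes for single-strand binding and for joining the short fragments of the lagging strand rose in 5 of 5 cases. Lig1, the ligase that seals these fragments, rose 3.69-fold. Its range was 7.06 to 7.45 (median 7.30) in sh scramble livers and 9.03 to 9.26 (median 9.13) in sh Grb14 livers, a change of 1.89 (SE 0.069; limma adjusted p = 5.82e-13). Rpa1, the large subunit of the protein that coats single-stranded DNA, went from 8.79 to 9.13 (median 8.93) up to 10.03 to 10.30 (median 10.20). Both stood apart between the groups, and Rpa1 changed by 1.22 (SE 0.059). Rpa2 rose by 0.89 (SE 0.067) and Fen1, the nuclease that trims the fragments' flaps, by 0.63 (SE 0.078). Rpa3, the smallest subunit, rose by 0.36 (SE 0.12; limma adjusted p = 0.0159), with overlapping groups. After quantile normalization it no longer passed (0.25, adjusted p = 0.0684), nor with arrays centred on the median of the genes tested (0.21, adjusted p = 0.125), while its second probe set rose by 0.31 (adjusted p = 0.000663).

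Of the genes that supply deoxynucleotides, 3 of 4 rose. Rrm1 and Rrm2 encode the large and the small subunit of ribonucleotide reductase, which makes the building blocks of DNA. Rrm2 ranged from 8.02 to 9.05 (median 8.49) in sh scramble livers, the widest range among the members there, and from 10.12 to 10.56 (median 10.28) in sh Grb14 livers. Its change was 1.80 (SE 0.14; limma adjusted p = 7.72e-09), 3.48-fold. Rrm1 went from 9.29 to 9.87 (median 9.42) up to 11.12 to 11.42 (median 11.22), a change of 1.78 (SE 0.086). In both genes mouse 3 was the highest of the sh scramble livers, and the groups were more than 1 log2 unit apart. Tyms, which makes thymidylate, rose by 1.10 (SE 0.060).

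Tk1, the thymidine kinase of the salvage route and a textbook S-phase enzyme, did not rise. It had values of 8.90 to 9.12 (median 9.02) in sh scramble livers and 8.87 to 8.996 (median 8.93) in sh Grb14 livers. The groups overlapped, and the change of −0.085 (SE 0.047) did not pass (limma adjusted p = 0.118; 0.000194 to 0.242 over the alternatives). Its second probe set was lower by a change of −0.22 (SE 0.056; limma adjusted p = 0.00286), and so was the mean of both (−0.15, adjusted p = 0.00998). After quantile normalization the change was −0.16 (adjusted p = 0.00959), and with arrays centred on the median of the genes tested −0.23 (adjusted p = 0.000194).

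The 3 genes of chromatin assembly and maintenance all rose more than 2-fold. Chaf1b, a subunit of the chaperone that places histones behind the fork, rose 4.04-fold, from a range of 7.06 to 7.43 (median 7.24) to one of 9.18 to 9.32 (median 9.28). Its change was 2.01 (SE 0.066; limma adjusted p = 1.64e-13). Uhrf1, which guides DNA methylation onto new strands, went from 6.68 to 7.12 (median 6.87) up to 7.97 to 8.42 (median 8.05), a change of 1.19 (SE 0.088). All livers of the groups were apart in both genes. Chaf1a, the large subunit of the same chaperone, rose by 1.02 (SE 0.091).

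The cyclin E genes, whose products drive entry into S phase, had 2 of the 3 largest changes of all members. Ccne1 ranged from 7.81 to 8.26 (median 8.11) in sh scramble livers and from 10.77 to 11.23 (median 10.95) in sh Grb14 livers. This rise of 2.95 (SE 0.088; limma adjusted p = 5.53e-14), 7.70-fold, placed Ccne1 at rank 44 among the 19938 genes ordered from the largest rise down. Ccne2 went from 6.99 to 7.20 (median 7.13) up to 9.10 to 9.74 (median 9.57), a change of 2.40 (SE 0.097), 5.26-fold. The gap between the groups exceeded 1 log2 unit for both.

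The members that act in repair at the fork rose in 3 of 3 cases. Brca1, of the recombination pathway that mends broken DNA, ranged from 6.39 to 6.68 (median 6.49) and from 7.84 to 8.48 (median 8.16), a change of 1.65 (SE 0.096; limma adjusted p = 1.52e-10). Brca2, of the same pathway, went from 7.07 to 7.46 (median 7.18) up to 8.17 to 8.72 (median 8.53), a change of 1.25 (SE 0.092). Neither overlapped between groups. Mcm8, a helicase related to the MCM2-7 subunits that takes part in recombination, rose by 0.31 (SE 0.076; limma adjusted p = 0.00206), with overlapping groups. Centred on the median of the genes tested, its change was 0.17 and no longer passed (adjusted p = 0.0619).

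Other genes of replication, 72 from a second list, moved in the same direction less uniformly. Among them 49 rose (68.1%, against 25.8% of all genes) and 11 fell, where 39.5% of all genes fell. Their median change was 0.53, and 12 missed the threshold. In 44 (61.1%, against 20.3% of all genes) the sh Grb14 livers lay above all sh scramble livers. The largest rises were those of Ccna2, the S-phase and mitotic cyclin A (3.04, SE 0.089), the topoisomerase gene Top2a (2.88, SE 0.11), the kinase gene Cdk1 (2.61, SE 0.10), the chromatin remodeller Hells (2.39, SE 0.12) and Rbl1, a relative of the retinoblastoma protein (2.26, SE 0.068). The largest falls were those of Shmt1, of folate metabolism (−1.22, SE 0.062), the ribonuclease H2 subunit genes Rnaseh2c (−0.80, SE 0.044) and Rnaseh2a (−0.25, SE 0.052), Pole4, of polymerase epsilon (−0.58, SE 0.054), and Rbl2, another relative of the retinoblastoma protein (−0.45, SE 0.045).

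Among regulators, E2f1, an activator of S-phase genes, rose by 0.91 (SE 0.062), and the repressors E2f7 and E2f8 by 0.72 (SE 0.048) and 0.92 (SE 0.17). E2f8 was widely spread in sh scramble livers, from 7.88 to 9.23, against 9.26 to 9.74 in sh Grb14 livers. Cdk2, the kinase partner of cyclin E, rose by 0.99 (SE 0.079), and Dnmt1, the maintenance DNA methyltransferase, by 1.61 (SE 0.053). Gmnn, which encodes the CDT1 inhibitor geminin, rose by 0.20 (SE 0.057). By role, 12 of 14 genes of firing and checkpoint and 6 of 7 of replication-coupled chromatin rose, against 3 of 7 of licensing and 4 of 9 of nucleotide supply. In between were S-phase cyclins, kinases and E2F regulators (14 of 19) and polymerase accessory and fork proteins (10 of 16). Of all genes 25.8% rose.

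**Figure D5:**
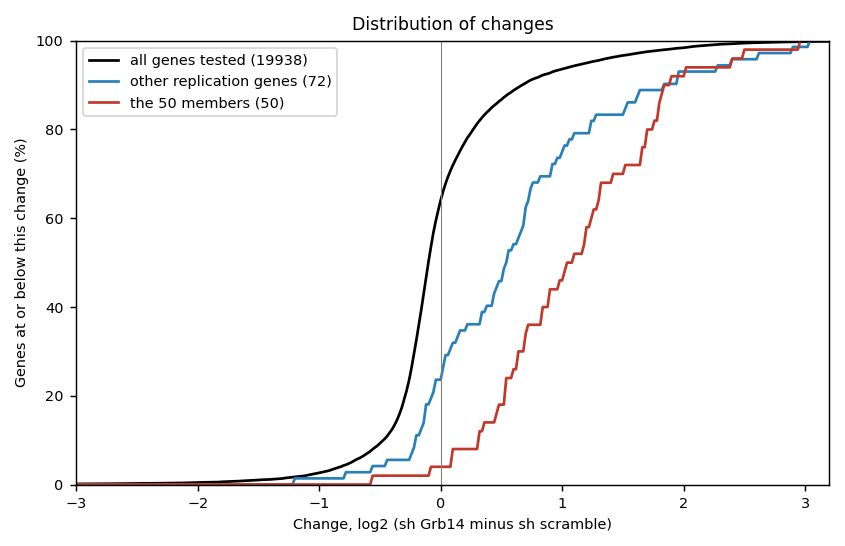
Cumulative share of genes (y axis, percent) at or below a given change (x axis, log2 difference, sh Grb14 minus sh scramble) for the 50 members, 72 other replication genes and all 19938 genes tested. The members' curve lies to the right, crossing the middle near 1.06, with that of other replication genes near 0.53 and that of all genes near −0.10.

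Markers of other cell types moved in the same livers, and their part in the rise of the replication genes was not tested. Levels are log2 means over a list, and the counts stand beside 25.8% of all genes that rose and 39.5% that fell. For recruited macrophages and monocytes all 8 of 8 measured genes rose, and the mean level went from 7.79 to 8.08 up to 9.63 to 10.02; Gpnmb changed by 4.79 and Itgax by 2.41. Of 7 T cell genes 6 rose and 1, Cd4, fell, with mean levels of 7.10 to 7.21 against 8.49 to 8.80 (Cd3g 2.95, Cd8b1 2.05). For NK and cytotoxic cells 6 of 8 rose, and levels were 6.20 to 6.35 against 7.60 to 7.84 (Gzmb 3.46, Nkg7 3.24). In the same list Klrb1c (0.050) and Ncr1 (0.16) did not pass, and Klrb1c lay below the arrays' lower quartiles. Neutrophil genes rose in 6 of 8 cases (Cxcr2 2.36, Retnlg 1.77), with levels of 6.27 to 6.41 against 7.33 to 7.72. Mpo (0.21) and Elane (−0.062) did not pass. The sh scramble mean of Cxcr2 (5.22) lay below the arrays' lower quartiles and that of Retnlg (5.73) among them, so these changes can be understated, as can that of Hells (5.74). Genes of stellate cells and fibroblasts rose in 6 of 8 cases (Acta2 2.46, Col1a1 1.76), with levels of 9.09 to 9.51 against 9.99 to 10.36. Lrat, of vitamin A storage in stellate cells, fell (−0.33), and Dcn had a change of 0.0031.

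Other lists shifted less or the other way, and their counts too stand beside 25.8% of all genes that rose and 39.5% that fell. Of 10 hepatocyte genes 9 fell and 1 did not pass (Tat −1.38, Asgr1 −0.54). Kupffer cell genes rose in 3 of 8 cases, with levels of 9.18 to 9.51 against 9.54 to 9.68 (Cd5l 1.79, Adgre1 1.64). In the same list C6 fell (−1.60), and Clec4f (−0.063) and Timd4 (−0.054) were among the 4 that did not pass. Of 7 genes of B and plasma cells 5 rose, none more than 2-fold (Cd79b 0.40, Jchain 0.39), with levels of 7.10 to 7.35 against 7.35 to 7.56. Sdc1, 1 of the 5, rose by 0.10 and had a sh scramble mean of 11.26, the highest in the list. Pax5 (−0.18) and Mzb1 (−0.11) did not pass. Sinusoidal endothelial genes rose in 2 and fell in 4 of 6 cases (Lyve1 1.14, Clec4g −0.85), with levels of 9.79 to 9.94 against 9.69 to 9.86. Of 5 cholangiocyte genes 1 rose (Epcam 0.48) and 4 did not pass, Krt19 (−0.076) among them, with levels of 7.02 to 7.19 against 7.17 to 7.38, and Cftr lay below the arrays' lower quartiles. Of 3 erythroid genes 2 fell (Alas2 −1.73, Klf1 −0.52) and 1 did not pass, with levels of 8.09 to 8.27 against 7.26 to 7.63.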

How the data were processed

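Total RNA of 12 livers was hybridised to Affymetrix whole-transcript arrays, 1 per mouse. The deposited log2 values of 35556 probe sets were used as they stand; per the submitters' processing notes RMA and Partek were used, without stated versions, and the build of the probes is not given in the sources used here. Probe sets with 1 symbol in the platform annotation (21789; 1621 had several and 12146 none) gave 19938 genes, each by its brightest probe set. Entrez identifiers of 21698 matched a RefSeq gene table (GRCm38.p6), and 0 symbols changed. The fit over all genes used limma 3.58.1 and R 4.3.3 (lmFit, eBayes with an intensity trend, no covariate, no filter), with Benjamini-Hochberg adjustment over all genes and a threshold of 0.05. The procedure was tested on simulated data in which few genes were changed, equally up and down. In these livers 65.3% of all genes passed, so that test does not bear on the counts here. The number of arrays, 6 per group, limits the precision. The labels give no batch, and nothing but the mouse numbers says that samples are separate animals.

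The members and lists were chosen with earlier results of these data known. The rule for named genes gives mouse-by-mouse values for the 2 members of each role group with the largest change. It also gives them for members that fell or missed the test. Otherwise named are the 5 largest rises and falls and 7 set genes among other replication genes, and 2 markers per cell type list. Added after their values were seen were Pold4, Cd4, C6, Clec4f, Timd4, Lrat and Dcn. So were Ncr1, Mpo, Elane, Sdc1, Pax5, Mzb1 and the markers named for lying low. Alternatives were other scalings, variance models, filters and probe set rules, an exact permutation test and leaving out each mouse.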

Additional observations from a re-analysis of the deposited data

Results flagged for a closer look

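In groups of 6 mice, 7 values of named genes stood apart from the other 5 by Dixon's criterion, the gap to the nearest value over the group's range, among 178 groups checked. Chance flags about 1 in 20 groups. In sh scramble mouse 3, Gins4 was 9.96 (others 9.71 to 9.79), Pole was 7.48 (others 7.17 to 7.26) and Hells was 6.14 (others 5.58 to 5.78). In sh Grb14 mouse 3, Rpa2 was 8.83 (others 8.49 to 8.58) and Uhrf1 was 8.42 (others 7.97 to 8.08). Gpnmb was low in sh Grb14 mouse 2 at 10.56 (others 11.22 to 11.53), and Krt19 was high in sh Grb14 mouse 4 at 8.11 (others 7.11 to 7.33).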

How the results depend on the processing

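Besides leaving out each of 12 mice, 7 other settings were run, and 2 more were chosen after seeing the data: centring each array on the median of the genes tested, and taking the other probe set of Pcna, Rpa3 and Tk1. The count of members higher was 44 to 47 throughout. The count lower became 2, with Tk1, after quantile normalization, with the mean of all probe sets of a gene, with the other probe sets and with the centring on genes tested. That centring moved the median change of all genes from −0.10 to −0.25, the percentage of calls that were higher from 39.5% to 23%, the count of all genes lower from 7868 to 12943, that of other replication genes lower from 11 to 19, and the members' median change from 1.06 to 0.91. It also reversed Gins4 (−0.060) and Pold2 (−0.059), neither past the test. The cause was not tested. Leaving out 1 mouse gave a members' median of 1.03 to 1.09 and a Grb14 change of −1.95 to −1.86. Of 1003 values of single members under alternatives, 991 kept their direction and side of the threshold. Settings without an intensity trend, with a filter on level or with the exact test leave the change itself as it is. Direction could not differ in those settings, and fits without 1 mouse share most of their data. No paired analysis was possible because the mouse numbers in the labels are shared by no groups. Without detection calls, changes of dim genes can be understated.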

Other observations

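Subunits of the same complex moved apart among the other replication genes, in cases chosen after their values were seen. Of the ribonuclease H2 subunits, which remove RNA from DNA, Rnaseh2b rose by 0.65 (SE 0.051) while Rnaseh2a and Rnaseh2c changed by −0.25 and −0.80. In polymerase epsilon, Pole and Pole2 rose by 1.64 and 1.81 while Pole3 had a change of 0.061 (SE 0.043; limma adjusted p = 0.223) and Pole4 one of −0.58. In the origin recognition complex Orc2 rose by 0.75 (SE 0.085), beside rises of Orc1 and Orc6, whereas Orc3 fell, with a change of −0.13 (SE 0.041; limma adjusted p = 0.0128), and Orc4 and Orc5 had changes of −0.058 and −0.044 that did not pass. Samhd1, which breaks down deoxynucleotides, rose by 1.95 (SE 0.061) in the livers where both ribonucleotide reductase subunit genes that make them, Rrm1 and Rrm2, rose by 1.78 and 1.80. The p53-responsive subunit gene Rrm2b had a change of −0.13 (SE 0.085; limma adjusted p = 0.193). These differences between subunits were not tested.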
